A study of Mus musculus with 12 samples.

Results

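Dual-specificity phosphatase, Sprouty and Spred transcripts were followed in NIH-3T3, an established line of mouse fibroblasts that grows without limit. The set held 10 of the 17419 genes counted and is defined by gene symbol: the phosphatase genes Dusp1, Dusp4, Dusp5, Dusp6, Dusp10 and Dusp16, the Sprouty genes Spry1, Spry2 and Spry4, and Spred1. The table identifies them as ENSMUSG00000024190 (Dusp1), ENSMUSG00000031530 (Dusp4), ENSMUSG00000034765 (Dusp5), ENSMUSG00000019960 (Dusp6), ENSMUSG00000039384 (Dusp10), ENSMUSG00000030203 (Dusp16), ENSMUSG00000037211 (Spry1), ENSMUSG00000022114 (Spry2), ENSMUSG00000024427 (Spry4) and ENSMUSG00000027351 (Spred1), all protein-coding in GENCODE M21. On GRCm38 that annotation places, with the strand, Dusp1 at chr17:26505590-26562128 (minus), Dusp4 at chr8:34807297-34819894 (plus), Dusp5 at chr19:53529109-53542431 (plus), Dusp6 at chr10:99263231-99267489 (plus), Dusp10 at chr1:184013302-184075636 (plus), Dusp16 at chr6:134715468-134792625 (minus), Spry1 at chr3:37639947-37644598 (plus), Spry2 at chr14:105891947-105896819 (minus), Spry4 at chr18:38586247-38601415 (minus) and Spred1 at chr2:117121374-117182279 (plus). Wild-type cells were exposed to 4-thiouridine (4sU) at 800 µM for 15, 30, 60, 90 or 120 min, or were left without it (no4sU). There were 12 libraries, each with 9917026 to 13739380 reads counted to genes, and 2 replicates, named A and B, in each of these 6 groups. 4sU is taken up by cells and built into RNA in place of uridine. In SLAM-seq, iodoacetamide (IAA) then alters it so that it is read as cytosine, and these conversions give an estimate of the new-to-total ratio (NTR), the fraction of the RNA of a gene that is younger than the label. All groups were 1 cell line, the labels name no treatment other than 4sU, and the no4sU cells are the control. The labels do not say whether A and B came from separate cultures, so the p-values measure the spread between these libraries, which may be technical.

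MAP kinase cascades carry growth factor and stress signals to the nucleus through ERK, JNK and p38. The signal is ended in part by genes that it switches on itself. Dual-specificity phosphatases remove the activating phosphates from the MAP kinases, Sprouty proteins restrain signalling between receptor tyrosine kinases and Ras, and Spred1 brings the Ras-inactivating protein neurofibromin to the membrane. Transcripts of such feedback genes are known for rapid turnover, which lets the brake be built and removed quickly.

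The series title asks how the length of labelling affects quantification. For these genes the questions were therefore how fast the RNA was replaced, and whether its measured level moved with labelling time. The fibroblast identity given by the labels was checked on 8 markers, all detected in all libraries, from Col3a1 (78.3 to 102 CPM, counts scaled to a common library size) to Fn1 (5756 to 8327 CPM). The epithelial Krt8, the immune Ptprc and Lyz2 and the endothelial Pecam1 stayed at or below 0.271 CPM in all libraries. Of the other markers looked at, Cdh1 stayed at or below 0.388 CPM, Cdh5 at or below 1.55 CPM, and Cd68 was at 4.20 to 6.76 CPM. The epithelial markers Epcam and Krt18 were not among the genes counted and could not be assessed.

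The 10 genes covered a wide range of abundance. Compared per length, as CPM per kilobase of the deposited gene length, Dusp4 was at 80.8 ± 6.13 (SD, n = 2) without 4sU and Dusp1 at 65.4 ± 2.25. Both encode nuclear phosphatases, and they were the most abundant of the set. Dusp5 (32.6 ± 4.63), Dusp10 (27.4 ± 1.48), Dusp6 (23.5 ± 1.71) and Spry2 (22.4 ± 0.313) came next. In this order Dusp5 and Dusp10, and also Dusp6 and Spry2, lay within their SDs of each other, while Dusp10 and Dusp6 did not. Spred1 was at 12.1 ± 1.45 CPM per kilobase, Dusp16 at 4.30 ± 0.616 and Spry4 at 3.79 ± 0.158. Spry1 was close to the limit of detection at 0.642 ± 0.0409, which rested on 15 to 32 reads in each library, so its values carry wide intervals throughout. The other 9 genes averaged 100 reads or more per library.

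Except for Spred1, nearly all RNA of the feedback genes was new after 120 min. The median NTR of the 10 genes went from 9.20% (15 min) through 38.5% (30 min), 85.7% (60 min) and 93.9% (90 min) to 99.9% (120 min). The 15 min value depended on the library: the median was 10.6% in A and 5.57% in B, and A was above B in 9 of the 10 genes. For comparison, the 9065 genes averaging 100 reads or more had medians of 1.06%, 5.25%, 15.5%, 24.5% and 35.4%. By its mean over 2 libraries, each of the 10 genes lay above the median of those genes at each duration. In single 15 min libraries, Spry1 in A (0.0%) and Spred1 in B (0.96%) lay below that median. At 120 min, 9 of the 10 had an NTR of at least 90%, a level reached by 671 of the 9065 genes (7.40%). The 9 include Spry1, which is not among the 9065 genes. Its 90% intervals at 120 min began at 54.4% (A) and 74.2% (B).

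**Figure D1:**
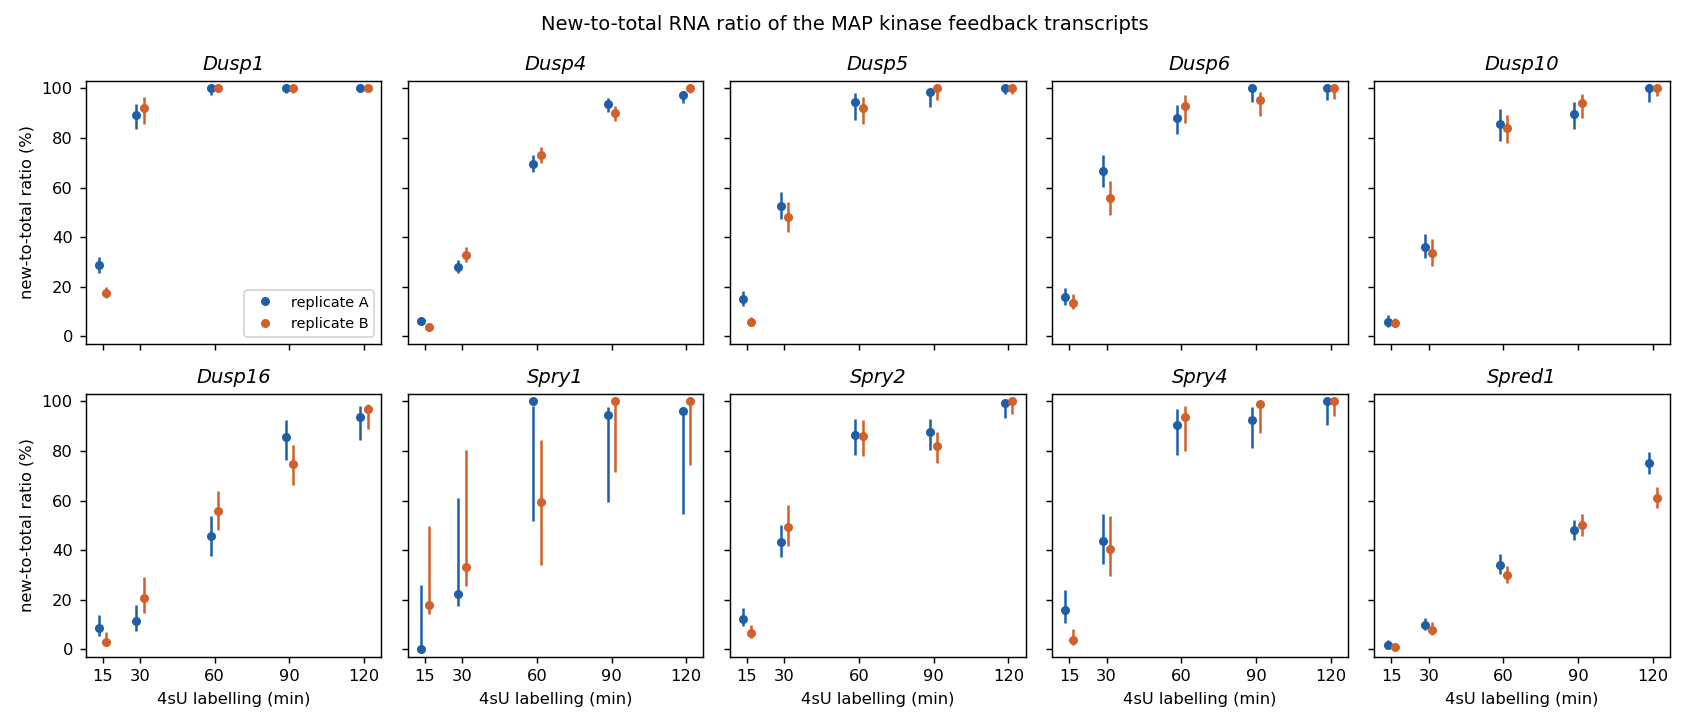
New-to-total RNA ratio in percent (y axis) against 4sU labelling time in minutes (x axis), 1 panel for each gene; points are the 2 libraries of each duration and lines the authors' 90% intervals. Dusp1 was at 89.2% and 92.0% at 30 min, while Spred1 was at 75.3% and 61.2% at 120 min.

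Dusp1, which encodes a nuclear phosphatase of p38, JNK and ERK, was replaced fastest. Its NTR was 28.7% in library A and 17.4% in library B after 15 min, and 89.2% (90% interval 83.5% to 93.7%) and 92.0% (85.7% to 96.5%) after 30 min. From 60 min on the deposited posterior maximum was 100% in all 6 libraries, with lower interval bounds of 97.5% and 98.4% at 60 min. At 30 min Dusp1 was the 1 gene among the 9065 with an NTR of at least 90%, and 99.989% of these genes were lower.

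At 30 min Dusp6 and Dusp5 followed. Dusp6 encodes the cytoplasmic, ERK-selective phosphatase, and its NTR at 30 min was 66.7% in A and 55.7% in B. The 90% intervals of Dusp1 and Dusp6 were apart in both 30 min libraries. Dusp5, the nuclear ERK-selective phosphatase, had 52.6% (A) and 48.0% (B) after 30 min, lower than Dusp6 in both libraries, with intervals apart in 1 of the 2. By 60 min most RNA of both genes was new, with 94.5% and 92.2% for Dusp5 and 88.3% and 93.0% for Dusp6.

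At 30 min Spry2 and Spry4 lay in the middle of the set. After 30 min Spry2 had an NTR of 43.4% in A and 49.6% in B, and after 60 min of 86.7% and 86.0%. Spry4 had 43.7% and 40.6%, then 90.5% and 93.8%, and its intervals overlapped those of Spry2 in both 30 min libraries. At 60 min Spry4 was above Dusp6 in both libraries, with overlapping intervals. Dusp5, Spry2, Spry4 and Dusp10 formed a run in the order at 30 min in which no pair of neighbours was apart by interval. For Spry1 the 90% interval at 60 min ran from 51.7% to 98.1% in A and from 34.1% to 84.5% in B, so its place in the order could not be determined at this depth.

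Dusp10 lay next to the Sprouty genes, and Dusp4, Dusp16 and Spred1 had a lower NTR at 60 min. Dusp10, whose product prefers p38 and JNK, had an NTR of 36.1% in A and 33.6% in B after 30 min. After 60 min it had 85.8% and 84.2%. Its intervals overlapped those of Spry4 at both durations, and those of Spry2 except in 30 min replicate B. There Dusp10 (28.4% to 39.4%) lay below Spry2 (41.6% to 58.2%). Dusp4, which encodes a nuclear phosphatase of ERK and JNK, had reached 69.7% and 73.3% by 60 min. Dusp16, a JNK-directed phosphatase, reached 45.6% and 55.9%, with intervals below those of Dusp4 in both libraries. Spred1 was the slowest of the 10: its libraries gave 34.2% (A) and 30.2% (B) for 60 min, and 75.3% (A) and 61.2% (B) for 120 min. Even so, 82.2% of the 9065 genes had a lower NTR than Spred1 at 60 min.

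Where the deposited posterior maximum is 100%, it lies above the 0.95 quantile deposited with it, so in such libraries the interval is the more informative value. If the level of an RNA is constant, its NTR gives an apparent half-life, which was computed for an NTR between 1% and 99%. At 60 min this was 14.4 min in A and 16.3 min in B for Dusp5, 17.7 and 14.9 min for Spry4, 19.4 and 15.6 min for Dusp6, and 20.7 and 21.2 min for Spry2. For the slower genes it was 21.3 and 22.5 min (Dusp10), 34.8 and 31.5 min (Dusp4), 68.4 and 50.8 min (Dusp16) and 99.4 and 115.9 min (Spred1). The median over the 8999 genes with a value in both libraries was 250.2 min. Dusp1 had no value at 60 min, but its interval bounds there correspond to half-lives of 5.61 to 11.3 min in A and 5.13 to 10.04 min in B. These bounds moved with the duration: at 120 min they were 10.3 to 19.6 min in A and 9.77 to 17.5 min in B.

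The apparent half-life differed with the duration it was computed from. For Dusp1 it was 42.6 min ± 16.8 (SD, n = 2) from the 15 min libraries and 8.80 min ± 0.793 from the 30 min libraries. Labelling for 15, 30, 60 and 90 min gave Dusp4 half-lives of 218.7 ± 85.1, 57.5 ± 7.61, 33.1 ± 2.37 and 24.7 ± 3.18 min. Labelling for 30, 60, 90 and 120 min gave Spred1 half-lives of 225.7 ± 33.1, 107.6 ± 11.6, 92.5 ± 3.75 and 73.7 ± 20.2 min. The median over all genes with a value was also shorter with longer labelling, 375.4 min from the 30 min and 202.4 min from the 120 min libraries. The shortening did not hold from 60 to 90 min for Spry2 (20.9 ± 0.359 and 33.2 ± 4.60 min), Dusp10 (21.9 ± 0.861 and 24.6 ± 3.77 min) and Spry4 (16.3 ± 1.95 and 19.02 ± 6.99 min), and for Dusp10 and Spry4 these values lay within their SDs. Dusp5 and Dusp6 had a value in only 1 of the 90 min libraries. For Dusp5 it was 15.0 min (A), beside 14.4 and 16.3 min at 60 min. For Dusp6 it was 20.6 min (B), beside 19.4 and 15.6 min at 60 min.

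The loss of old RNA gives a half-life that does not need a constant level. It does need a constant rate of loss and NTRs that are comparable between durations. Old RNA was taken as the part of the CPM that was not new, and a line was fitted to its log2 over the labelled libraries with an NTR of at most 99%. This gave 4.63 min for Dusp1 (4 libraries, up to 30 min), 11.3 min for Dusp5 (7 libraries, up to 90 min), 14.01 min for Spry4 (8) and 15.8 min for Dusp6 (7). It gave 18.1 min for Dusp10 (8), 18.8 min for Dusp4 (9), 22.4 min for Dusp16 (10), 24.4 min for Spry2 (8) and 50.8 min for Spred1 (10). The measured loss was not at a constant rate for Dusp16. Its mean old RNA was at 23.0 CPM (15 min), 20.4 (30 min), 12.3 (60 min), 4.34 (90 min) and 0.879 (120 min). For Dusp16 and Spred1 the fits lay below the mean apparent half-lives at 60 min, 59.6 and 107.6 min. For Dusp1 the fit lay below the bounds from its 30 min intervals, 7.52 to 11.5 min in A and 6.23 to 10.7 min in B. Dusp1 was again the shortest and Spred1 the longest. Between them Spry2 came out longer than Dusp10, Dusp4 and Dusp16, although its mean NTR at 60 min was above theirs. That NTR was 86.3% for Spry2 and 50.7% for Dusp16. The limit of 99% kept libraries up to 90 min for Spry2 and up to 120 min for Dusp16. With the posterior mean of the NTR, Spry2 was at 19.0 min, Spry4 at 17.8 min and Dusp16 at 23.4 min. The order of Spry2 and Dusp16 thus depended on this choice. For Spry1 the letters gave 19.1 min (A) and 108.5 min (B), which is no usable estimate. Fits of replicate A and B alone were 18.8 and 11.2 min for Spry4 and 21.5 and 28.2 min for Spry2, and they differed by less for the other 7 genes relative to their value.

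**Figure D2:**
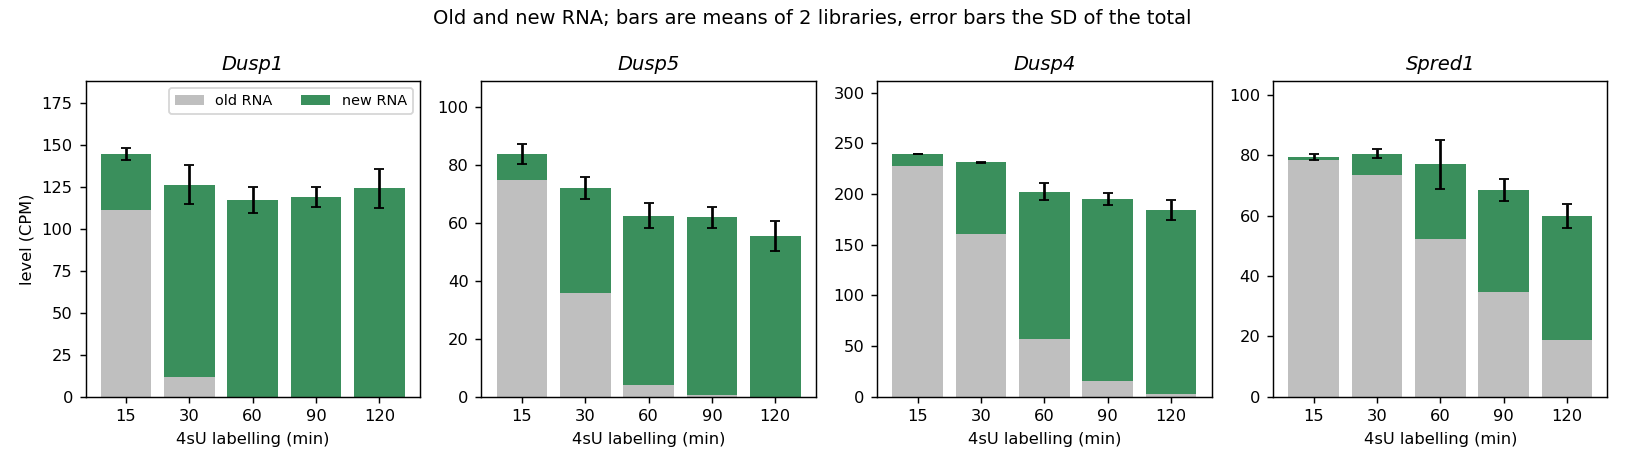
Mean level in CPM (y axis) against 4sU labelling time in minutes (x axis) of Dusp1, Dusp5, Dusp4 and Spred1, divided into old RNA (grey) and new RNA (green); error bars are the SD of the total over 2 libraries. New Dusp1 RNA was at 114 CPM by 30 min and 124 CPM at 120 min, while old Spred1 RNA was still at 18.8 CPM at 120 min.

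Old and new RNA of single genes moved on different scales of time. New Dusp1 RNA was at 33.5 CPM ± 12.4 (SD, n = 2) after 15 min, 114 ± 13.1 after 30 min and 124 ± 11.6 after 120 min, so that it had reached its later level within 30 min. Old Dusp1 RNA fell over the same interval from 111 CPM ± 8.87 at 15 min to 11.8 ± 1.43 at 30 min. New Dusp4 RNA was still building up, from 70.7 CPM ± 7.63 (30 min) through 145 ± 11.2 (60 min) to 182 ± 5.88 (120 min). New Spred1 RNA was at 41.03 CPM ± 8.73 at 120 min and old Spred1 RNA at 18.8 ± 4.73.

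Sequence elements of the transcripts were examined next, because AU-rich elements in the 3′ UTR are a known signal for mRNA decay. The pentamer ATTTA was counted on the transcript strand, overlapping matches included, in the 3′ UTR of 1 GENCODE M21 coding transcript for each gene (GRCm38, not known to be the authors' build). All 10 genes held at least 1, as did 68.9% of the 8932 genes averaging 100 reads or more that had an annotated 3′ UTR. By density, 7 of the 10 lay above the median of 1.35 per kilobase. Dusp1 had 4 in a short 3′ UTR of 690 bases, or 5.80 per kilobase, and 95.3% of genes had a lower density. Dusp6 and Dusp5, next in NTR at 30 min, had 1 each, 0.841 and 0.902 per kilobase, below the median. Spred1, the slowest, had 12 in 4330 bases, or 2.77 per kilobase, and 76.3% of genes had a lower density. Within the set, the order by pentamer density was therefore not the order by NTR. Across the 8932 genes, which are not independent, Spearman's rho of density with the NTR at 60 min was 0.15.

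The stretch of 30 bases richest in the pentamer is shown for the fastest gene, for Dusp6 as a fast gene with little of it, and for the slowest, on the transcript strand with each ATTTA in capitals. The sites lie in the 3′ UTR at chr17:26506157-26506186 (minus strand), chr10:99267419-99267448 (plus strand) and chr2:117179569-117179598 (plus strand).
Dusp1: agctggtccttATTTATTTAacacccccct
Dusp6: gttttgagctggaATTTAttataagaatgt
Spred1: ttaagaaagcATTTAtATTTAtatgacagc
The Dusp1 site holds 2 overlapping copies, the Dusp6 site holds 1, and the Spred1 site holds 2 separate ones.

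Promoters were looked at because feedback genes are known to be switched on by the pathways they restrain. The RefSeq table (GRCm38.p6) held 8 of the 10 promoters, each from 250 bases before to 50 after the start, and not those of Dusp4 and Spry4. The cyclic AMP response element TGACGTCA, searched on both strands, was present in Dusp1 alone of the 8, and in 1.80% of 32544 promoters of this length. The CArG box, to which serum response factor binds, was present in Dusp5 alone of the 8, as 2 adjoining copies, and in 1.64% of all promoters. None of the 8 held TGANTCA (AP-1, in 7.79% of promoters), CCGGAAG (ETS, 8.91%) or TATAAA (13.6%), on either strand. These are matches of letters and not shown to be bound here. Both stretches that hold a match are shown from 200 to 51 bases before the start, with the matches in capitals, at chr17:26508523-26508672 (minus strand) and chr19:53528945-53529094 (plus strand).
Dusp1: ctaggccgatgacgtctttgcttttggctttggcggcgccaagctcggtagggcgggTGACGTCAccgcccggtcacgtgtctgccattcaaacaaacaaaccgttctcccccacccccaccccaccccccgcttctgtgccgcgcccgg
Dusp5: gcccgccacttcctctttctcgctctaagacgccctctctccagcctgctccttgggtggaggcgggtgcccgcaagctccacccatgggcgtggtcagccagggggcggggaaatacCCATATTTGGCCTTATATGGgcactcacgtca
The element in Dusp1 begins 143 bases before the start, and those in Dusp5 begin 82 and 72 bases before it.

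Measured levels of 6 of the 10 feedback genes were lower after the longest than after the shortest labelling. At 120 against 15 min, 6 of the 10 were lower and 0 were higher (edgeR's quasi-likelihood test, adjusted p below 0.05 over 11564 genes). Of all genes tested, 19.3% passed, 11.3% lower and 7.93% higher. Among the 671 genes with an NTR of at least 0.9 at 120 min, which include most of the set, 48.0% were lower, and their median log2 fold change was -0.27 beside -0.32 for the 10 genes and 0.01 for all genes. Over the 10 labelled libraries, 8 of the 10 had a falling slope with labelling time and 0 a rising one. Of all genes tested, 37.8% had a slope past the threshold, 19.5% falling and 18.3% rising, and 68.0% of the genes with high NTR had a falling one. Read against the genes with high NTR, these counts are no result particular to the 10 genes.

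**Figure D3:**
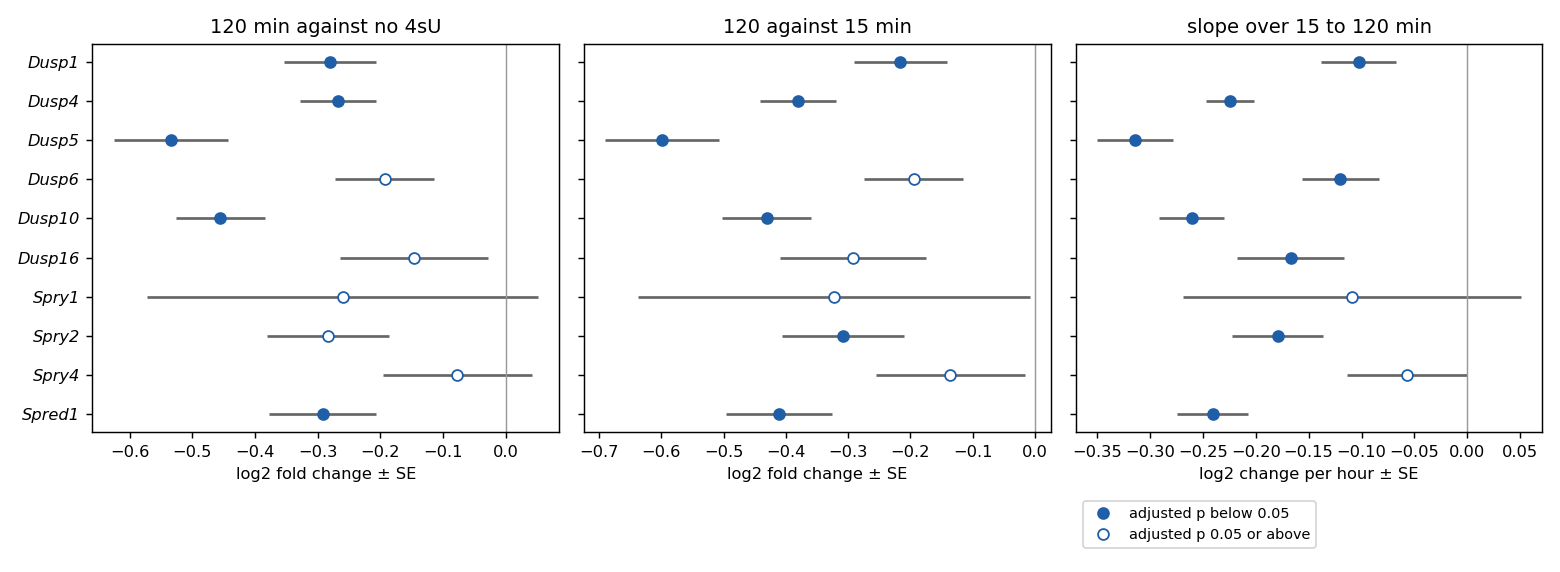
Log2 fold change at 120 min against no4sU, at 120 against 15 min, and log2 change per hour over the labelled libraries (x axes, with SE) of the 10 genes (y axis); filled points have an edgeR adjusted p below 0.05. All points lie below 0, and Dusp5 lies lowest in each panel at -0.53, -0.60 and -0.31.

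Dusp5 fell most. In libraries A and B its level was 86.4 and 81.4 CPM (15 min), 74.9 and 69.5 (30 min), 59.5 and 65.6 (60 min), 59.4 and 64.6 (90 min), and 59.1 and 51.98 (120 min). Both 15 min libraries were above both 30 min libraries, and these above all later ones. The log2 fold change at 120 against 15 min was -0.60 ± 0.0910 (SE, edgeR adjusted p = 0.000257), a level 33.99% lower.

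Dusp10 and Dusp4 also passed. The level of Dusp10 was 75.9 and 74.1 CPM (15 min), 75.9 and 74.8 (30 min), 62.1 and 70.2 (60 min), 61.3 and 61.8 (90 min), and 56.4 and 54.9 (120 min), so that the 15 and 30 min libraries lay together above all later ones. Between 120 and 15 min the log2 fold change of Dusp10 was -0.43 ± 0.0716 (SE, edgeR adjusted p = 0.000557). The level of Dusp4 was 239.8 and 239.5 CPM (15 min), 232 and 231 (30 min), 196 and 208 (60 min), 199.2 and 191 (90 min), and 191 and 178 (120 min). The 15 and 30 min libraries were above all later ones, and the log2 fold change of Dusp4 was -0.38 ± 0.0604 (SE, edgeR adjusted p = 0.000391). Dusp5, Dusp10 and Dusp4 kept their calls at 120 against 15 min without any single 15 or 120 min library and with DESeq2.

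Among the Ras regulators, Spred1 and Spry2 passed. Spred1 stayed at 78.7 to 81.5 CPM in the 15 and 30 min libraries, and its 120 min libraries held 62.7 and 57.0 CPM, with a log2 fold change of -0.41 ± 0.0854 (SE, edgeR adjusted p = 0.00270). Leaving out 120 min replicate B ended this call (adjusted p = 0.0658). Spry2 had 53.4 and 41.9 CPM in the 15 min libraries and 40.8 and 36.5 CPM in the 120 min libraries, so that the 15 min libraries differed by more than B did from 120 min replicate A. Its log2 fold change was -0.31 ± 0.0986 (SE, edgeR adjusted p = 0.0338), and it was -0.12 without 15 min replicate A (adjusted p = 0.524). Leaving out either 120 min library also ended the call (adjusted p = 0.0609 and 0.274), as did DESeq2 (0.0626).

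Dusp1 was already low in the 30 min libraries. Its level was 155 and 148 CPM without 4sU, 147 and 142 (15 min), 118 and 134 (30 min), 112 and 123 (60 min), 123 and 115 (90 min), and 116 and 132 (120 min). The 4 libraries without 4sU or with 15 min were above all 8 later ones, and among the later ones there was no further order. The slope of Dusp1 over the labelled libraries was -0.10 ± 0.0354 per hour (SE, edgeR adjusted p = 0.0192), and it did not pass with DESeq2 (0.175). Without single libraries it ranged from -0.06 (15 min replicate A left out) to -0.17 (120 min replicate B left out). The log2 fold change at 120 against 15 min was -0.22 ± 0.0746 (SE, edgeR adjusted p = 0.0475). This call was lost without 15 min replicate A (adjusted p = 0.241) or B (0.119), without 120 min replicate A (0.404) and with DESeq2 (0.0652).

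The other 4 genes did not pass at 120 against 15 min. Dusp16 had a log2 fold change of -0.29 ± 0.118 (SE, edgeR adjusted p = 0.0881) and Dusp6 one of -0.19 ± 0.0796 (adjusted p = 0.0923). Both passed when the no4sU libraries were left out of the fit (adjusted p = 0.0274 and 0.0210), and both had a falling slope over the labelled libraries, -0.17 ± 0.0509 per hour (adjusted p = 0.00816) and -0.12 ± 0.0363 per hour (0.00761). These slopes did not pass without 1 library: Dusp16 was at -0.11 without 120 min replicate A (adjusted p = 0.140) and Dusp6 at -0.08 without 15 min replicate A (0.103). Spry4 had 18.9 and 18.7 CPM in the 15 min libraries and 17.5 and 16.8 CPM in the 120 min libraries (log2 fold change -0.14 ± 0.120, adjusted p = 0.450). Spry1 had a log2 fold change of -0.32 ± 0.315 (adjusted p = 0.503). Neither Spry4 nor Spry1 had a slope past the threshold, and at their read numbers a change of the size seen in Dusp1 could not be resolved.

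**Figure D4:**
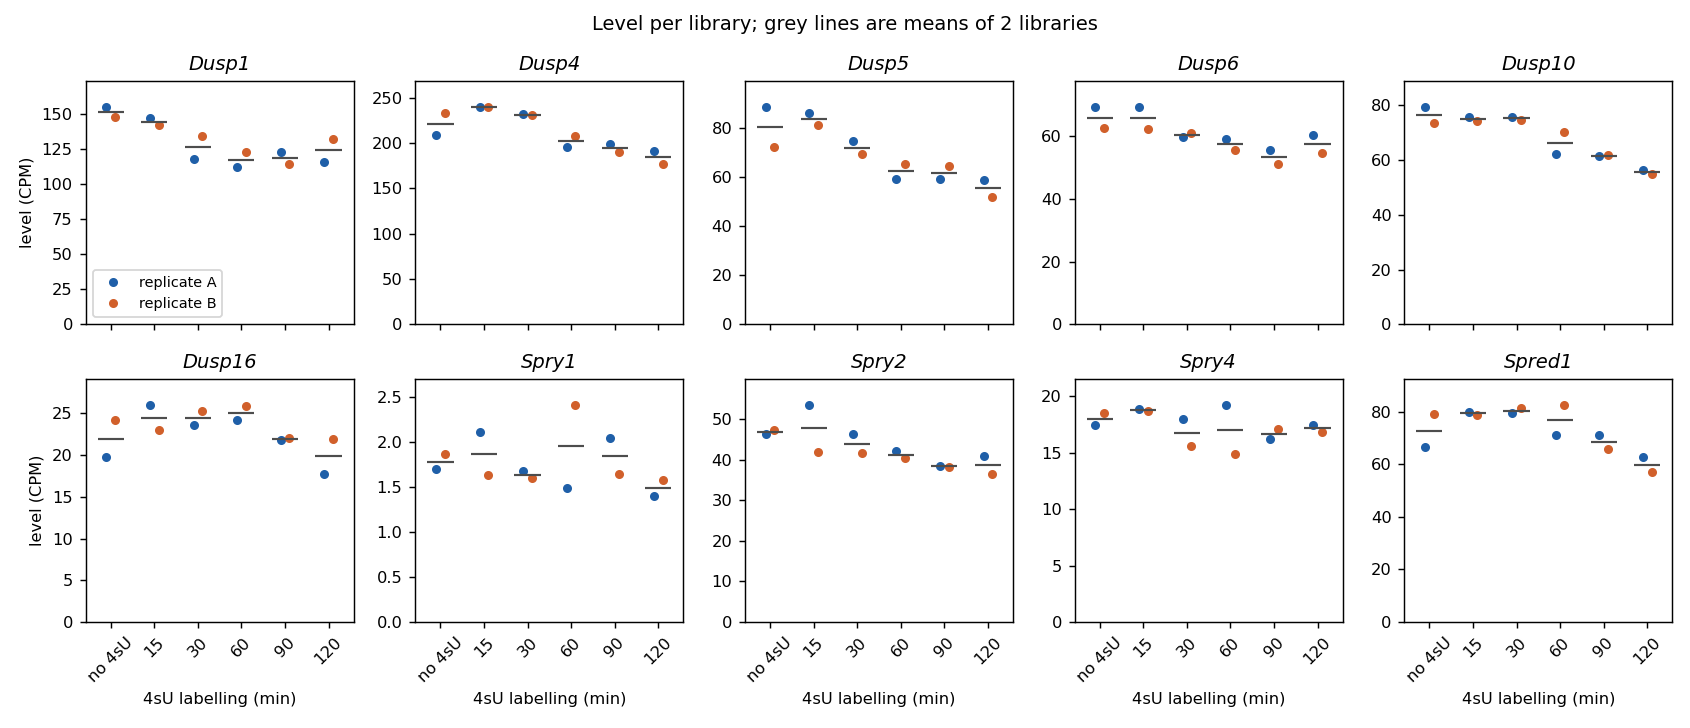
Level in CPM (y axis, from 0) in each of the 12 libraries by group (x axis, 4sU labelling in minutes), 1 panel for each gene; points are libraries, grey lines are means of 2. Dusp1 was between 142 and 155 CPM without 4sU and at 15 min and between 112 and 134 CPM in all later libraries, while Dusp10 was between 74.1 and 75.9 CPM at 15 and 30 min.

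Against the unlabelled libraries, 5 of the 10 were lower at 120 min and 0 higher. Of all genes tested, 14.2% passed, 8.78% lower and 5.43% higher, and 38.3% of the genes with high NTR were lower. These were Dusp5 at -0.53 ± 0.0909 (SE, edgeR adjusted p = 0.000858), Dusp10 at -0.46 ± 0.0711 (0.000451), Spred1 at -0.29 ± 0.0854 (0.0281), Dusp1 at -0.28 ± 0.0741 (0.0166) and Dusp4 at -0.27 ± 0.0604 (0.00673). At 90 min 3 of the 10 were lower, Dusp1, Dusp5 and Dusp10, where 1.39% of all genes passed, 0.943% lower and 0.45% higher. At 90 against 15 min 2 were lower, Dusp4 and Dusp5, where 1.06% of all genes passed, 1.01% lower and 0.0519% higher. The share among genes with high NTR was not computed at 90 min, so these counts are not shown to be particular to the 10 genes. At 60 min and earlier, none of the 10 passed by edgeR against no4sU (0, with 5 at an unadjusted p below 0.05 at 60 min, 1 at 30 min and 0 at 15 min) or against 15 min (0, with 6 at 60 min and 2 at 30 min). Of all genes, 0.0173% passed at 60 min against no4sU (0.00865% lower), 0.0346% at 60 against 15 min (0.0173% lower) and 0.0% at the shorter durations. DESeq2 was not run for these earlier comparisons. The contrasts with no4sU share their controls, as do those with 15 min.

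No4sU replicate A stood apart in its effect on the calls: without it 3533 of all genes passed at 120 min against no4sU, in place of 1643, so these results are also given without each no4sU library. Dusp5 was at 88.7 CPM in no4sU replicate A and 72.5 in B, and its log2 fold change was -0.39 without A and -0.68 without B, past the threshold both ways. Spred1 lost its call without no4sU replicate B (-0.16, edgeR adjusted p = 0.203), while Dusp6 gained one (-0.27, adjusted p = 0.0176). Leaving out no4sU replicate A brought Spry2 past the threshold (-0.30, adjusted p = 0.0213). Dusp1 (adjusted p = 0.227) and Spred1 (0.0727) lost their calls when 120 min replicate A was left out, and Dusp4 (0.112) and Spred1 (0.249) when B was. With only the no4sU and 120 min libraries in the fit, 2 of the 10 passed, Dusp5 and Dusp10.

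The fits were repeated on the assumption that labelled RNA was under-counted. For each library a loss was fitted, namely the fraction of new RNA that must have gone uncounted if fold change and NTR are to be unrelated over all genes, and it was 30.5% and 32.1% in the 120 min libraries. The same fit gave -29.7% for 15 min replicate A, which no loss can produce and which was set to 0, so the fitted values are a rough guide. With the new part of each count scaled up by this share, 0 of the 10 passed by edgeR at 120 against 15 min (2 at an unadjusted p below 0.05). Dusp5 was then at -0.29 (adjusted p = 0.105), Spred1 at -0.25 (0.141) and Dusp10 at -0.12 (0.436), while Dusp1 was at 0.10 (0.571) and Dusp6 at 0.12 (0.496). In the slope over labelled time, Spred1 (-0.15 per hour, adjusted p = 0.000924) and Dusp5 (-0.11, 0.0268) still fell, and Dusp1 rose (0.10, 0.0493). Loss of labelled RNA and a fall of the transcripts in the cells cannot be told apart in this design.

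Other parts of the pathway were examined with lists of named genes, to be read beside the 11.3% of all genes that were lower and the 7.93% that were higher at 120 against 15 min. Of the 20 genes of the ERK cascade, 5 were lower at 120 against 15 min, 0 higher and 15 did not pass. Among these were Sos2 (-0.50) and Sos1 (-0.35), which load Ras with GTP, and the receptor adaptor Frs2 (-0.40). The median log2 fold change of the list was -0.09 and its median NTR at 60 min 15.2%, beside 85.7% for the feedback genes. Of 9 tested genes of the JNK and p38 cascades, 2 were lower, Mapk8 (-0.35) and Mapk14 (-0.19), which encode a JNK and a p38 kinase, 0 were higher and 7 did not pass (median -0.05).

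Further family members had a lower median NTR than the 10. Of 12 tested Dusp, Spry and Spred genes outside the set, 2 were lower, Dusp11 (-0.42) and Spred2 (-0.22), 0 were higher and 10 did not pass, a share near the 11.3% of all genes that were lower (median -0.09, median NTR at 60 min 31.0%). Dusp11 acts on RNA and not on MAP kinases. Of 20 tested genes known to respond to ERK, 4 were lower and 1 was higher, where 11.3% of all genes were lower and 7.93% higher, and 15 did not pass (median -0.16, median NTR at 60 min 63.2%). The median NTR of that list at 120 min was 96.2%, and of the genes with high NTR 48.0% were lower. The lower genes were the receptor Epha4 (-0.90, mean count 69.8), the transcription factors Myc (-0.34) and Etv5 (-0.33), and Errfi1 (-0.24), a feedback inhibitor of the EGF receptor. Ier3, an immediate early gene with an NTR of 99.03% at 60 min, was higher at 0.39 ± 0.116 (SE, edgeR adjusted p = 0.0224).

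Genes with the most similar labelling course were sought for a phosphatase and a Sprouty gene, by the mean absolute difference in NTR over the 10 labelled libraries. Closest to Dusp6 among 9064 genes were Id1 (2.16 percentage points), Dnm3os (2.60) and Ier5 (3.03), where the median gene differed by 56.4 points. Closest to Spry2 were Jun (2.65 points), Zfp280b (3.32) and Zbtb34 (3.36), where the median gene differed by 48.9 points. The libraries are shared by all genes, so this likeness is a description.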

How the data were processed

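RNA of NIH-3T3 cells was sequenced in 12 libraries, 2 for each of 6 groups taken from the sample titles. The submitters' processing notes name cutadapt, Bowtie2 2.3.0 and STAR 2.7.10b without roles. The sources used here do not give the genome build, annotation, counting tool or use of strand. The deposited table of 17419 genes holds estimated counts per library that the authors did not scale (20.4% not whole, tolerance 1e-06), here rounded to whole numbers. Per the file headers it also holds the NTR as a fraction (posterior maximum, mean, 0.05 and 0.95 quantiles, here shown as percent), the parameters alpha and beta of a distribution, deposited as a score and not used here, and a gene length.

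Counts were tested with edgeR 4.0.16 (R 4.3.3): filterByExpr (11564 genes), TMM (factors 0.970 to 1.02), 1 quasi-likelihood fit of all 12 libraries, and, for the slope with hours, the 10 labelled libraries (11526 genes). Adjusted p is Benjamini-Hochberg over all genes, with 0.05 as threshold. SE is the log2 fold change divided by the root of F. CPM uses TMM library sizes. The fits were tested on simulated data. DESeq2 1.42.0 and other scalings, filters and left-out libraries were alternatives. Python 3.11.15 was used. Implied losses below 0 were set to 0. Members, gene lists and the naming rule (all 10 members; from each list up to 6 genes past the threshold; 3 nearest by NTR for Dusp6 and Spry2) were chosen with earlier results of these data known. Values of some genes that this rule names are not reported here. The half-life at 30 min, the median NTR by replicate at 15, 30 and 90 min and the fit of the labelled libraries alone were added after seeing the data. Precision is limited by 2 libraries a group, and intervals of the NTR are the authors' model estimates.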

Additional observations from a re-analysis of the deposited data

How the results depend on the processing

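At 120 against 15 min the count of the 10 genes called stayed within 4 to 8 under DESeq2 (4), library-size scaling (8), no filter (6), the replicate block (6), a fit of both groups alone (8) or of the labelled libraries (8), and was 4 to 5 without single libraries. Scaling the new part by the implied loss gave 0 by edgeR, with 2 at an unadjusted p below 0.05. The count over all genes, 2228, was 1469 with DESeq2, 249 after that scaling, 3818 with both groups alone, 3700 with the labelled libraries alone, and 657 to 1037 without single libraries. With library-size scaling, 81.4% of its calls were lower, beside 58.8%. At 120 min against no4sU, 5 of the 10 became 0 by edgeR after the loss scaling (2 at an unadjusted p below 0.05), 2 with both groups alone, and 3 to 6 without single libraries. The 1643 genes became 1059 with DESeq2, 187 after loss scaling, 171 with both groups alone, and 452 to 3533 without single libraries, and 89.2% of calls were lower with library-size scaling, beside 61.8%. For the slope, 8 of the 10 became 3 (2 lower, 1 higher) after loss scaling and 6 to 8 without single libraries, and the 4362 genes became 1562 and 3418 to 4372. With library-size scaling 72.1% of those calls were lower, beside 51.6%. DESeq2 gave 7 of the 10 a slope past the threshold, all falling.

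Directions turned in 2 settings. After loss scaling, at 120 against 15 min, Dusp16 was at 0.0023, Dusp6 at 0.12, Spry2 at 0.0051, Dusp1 at 0.10 and Spry4 at 0.18. Against no4sU, Spry1 was at 0.0377, Dusp16 at 0.15, Dusp4 at 0.0388, Dusp6 at 0.12, Spry2 at 0.0287, Dusp1 at 0.0323 and Spry4 at 0.23. In the slope, Spry1 was at 0.0587, Dusp16 at 0.0043, Dusp6 at 0.0788, Spry2 at 0.0111, Dusp1 at 0.10 and Spry4 at 0.14. Dusp16 against no4sU ranged from -0.32 to 0.0213 without single libraries and was above 0 without no4sU replicate B. The alternative scales up the new part by construction, and the cause of the fall itself was not tested.

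Replicate letters did not pair the libraries: over the 15 pairs of groups, the A minus B differences correlated across genes at -0.13 to 0.15. The replicate block gave 6, 6 and 8 of the 10 genes called in the 3 comparisons, with Spry2 gaining a call against no4sU (-0.29, edgeR adjusted p = 0.0346), and no other call among the 10 changed. The median NTR of the 10 genes at 120 min was 99.3% with the posterior mean, beside 99.9%, and 99.8% to 100% by replicate. At 60 min it was 85.1% to 87.5% by replicate, and at 15 min 5.57% to 10.6%, beside 9.20%. Their median apparent half-life was 20.97 to 22.5 min by replicate at 60 min, and 27.8 to 55.8 min at 120 min, where it rested on the few genes not yet above 99%.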
